A study of Mus musculus with 11 samples.

Results

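The genes described here kept a difference from the primary tumour through regrowth. Their 7 log2 values after withdrawal of the oncogene Wnt1, on 4 recurrent and 3 residual arrays, lie all above or all below the 4 values of primary tumour cells. Of 23835 named genes 1297 met this rule, 510 of them higher and 787 lower after withdrawal. The cells carry the transgenes MMTV-rtTA and TetO-Wnt1, a pair that makes Wnt1 in mammary epithelium while doxycycline is given, and H2B-eGFP, a green fluorescent histone. All groups grew as orthotopic grafts, the hosts being female nu/nu mice, which lack a thymus and most T cells but keep macrophages, neutrophils and natural killer cells, and all are labelled as cells positive for the fluorescent protein. Recurrent tumour cells and residual lesion cells carry the label of Wnt1 inhibition, made by taking doxycycline away. The residual lesions were taken 28 days after withdrawal, and no age is given for the recurrent tumours. Primary tumour cells are labelled untreated, and tumours were grown on doxycycline. Whether each array stands for its own animal, and whether animals were pooled, is not in the labels, so p-values reflect only how these samples vary, and part of that may be technical.

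Wnt ligands bind Frizzled receptors and Lrp co-receptors, which spares beta-catenin from breakdown and lets it act on genes with TCF and LEF factors. In the mammary gland this pathway maintains stem and progenitor cells, and mouse mammary tumours driven by Wnt1 hold both luminal and basal cells. The small leucine-rich proteoglycans, which return below, are secreted proteins that bind collagen and set the width of its fibres. They are made mainly by fibroblasts, cartilage and bone cells.

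Each array gave log2 signals made with RMA, which corrects background, equalises arrays and joins the probes of a gene. Array medians lay between 4.35 and 4.45. The signal that 95% of 1066 olfactory receptor genes stay below, used here as the background level, was 4.03 to 4.09 on the recurrent, 4.34 to 4.38 on the residual and 3.96 to 4.02 on the primary arrays. Wnt1 itself was no member. Wnt1 read 2.89, 3.02, 3.05 and 3.26 on the recurrent arrays and 3.23, 3.04 and 3.10 on the residual arrays, against 3.04, 3.07, 2.98 and 3.05 on the primary arrays, all inside the background range, with a limma adjusted p of 0.817 for the cells after withdrawal against primary cells. No source used here gives the part of Wnt1 that the probes cover, so this level checks nothing about the transgene. Of 28 luminal epithelial markers 10 read above background in recurrent, 18 in residual and 10 in primary cells, and of 22 basal markers 14, 13 and 13. Among them Krt8 and Krt18, the keratins of simple epithelium, stood at 10.08 and 10.42 in primary cells. Epcam, a surface protein of epithelial cells, and Krt5, a basal keratin, averaged 3.29 and 3.88 there, below background (both chosen after their values were seen). Where a group mean lies below background, a difference to or from it has no measured size. Beside the genes marked where they stand, this holds for the primary means of Fmod, Chrdl1, Lrrc32, Fzd9, Cyp26a1 and Slc40a1 and the residual means of Grem1, Stfa3, Htr1b and Chaf1b. Recurrent arrays 1 and 2 stood apart from recurrent arrays 3 and 4 for several members, as the values show.

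The rule is wide and takes in small differences. Genes without overlap in either direction were 5.44% of all genes, those higher 2.14% and those lower 3.3%. Only 148 of the 510 higher and 91 of the 787 lower members lay at least 2-fold from the primary mean in both stages. The median difference of higher members was 0.70 in recurrent and 0.89 in residual cells (log2), and that of lower members -0.55 and -0.775. Members just inside the rule were Upk3b, Plxna1, Nrp2, Mir3095, Ap1s3 and Fbxl5, with 6.77e-05 to 0.00099 log2 units between the sides. Those just outside, with values of -0.000873 to -0.000112 on the same measure, were Snora47, Timp1, Arsg, Mospd1, Tfe3 and Mir669e, and 114 further genes tied. On the higher side, 99 higher and 30 lower members did not reach the background level.

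Limma, fitted to all 11 arrays with 3 groups, set the average of the recurrent and residual means against the primary mean and called 8.39% of genes at an adjusted p under 0.05, 3.14% higher and 5.25% lower. Among them were 382 higher and 610 lower members. The rule and the contrast read the same values, so nothing is read from this count. The separate contrasts, which share the 4 primary arrays, called 1.8% of genes in recurrent and 12.4% in residual cells. Of the higher members 155 were called in recurrent and 341 in residual cells, and of the lower members 176 and 542. With arrays centred on their medians the rule took 364 higher and 1223 lower genes, among them all 787 lower members, and limma called 601 higher and 1741 lower genes, a higher share of 25.7% in place of 37.4%. With recurrent and residual arrays fitted as 1 group, so that the difference between these stages counts as spread, limma called 256 higher and 320 lower genes. Without any one primary array it called 460 to 477 higher and 754 to 776 lower genes.

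**Figure D1:**
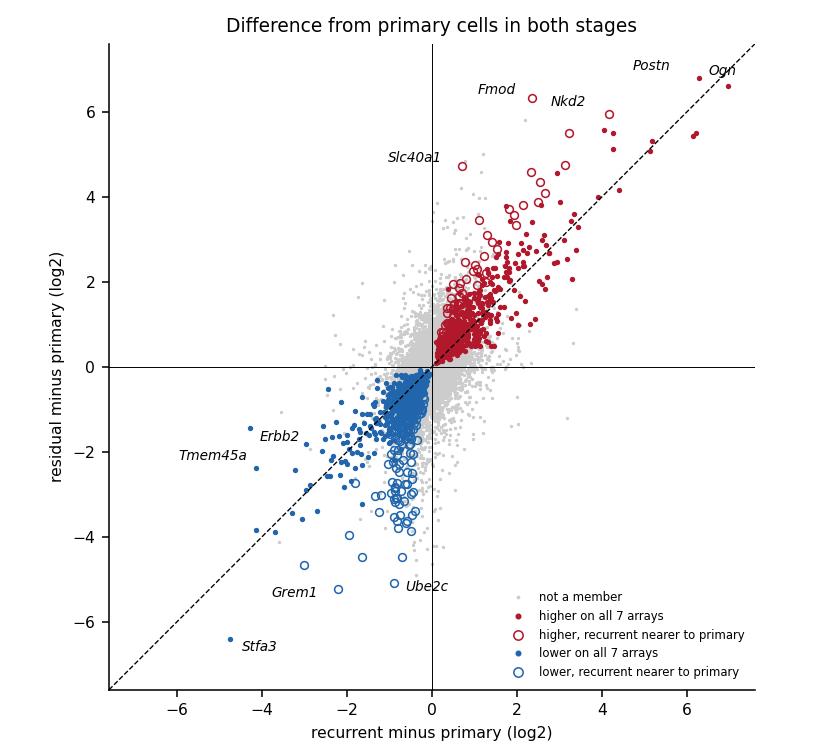
Each point is a gene, by its log2 difference from primary cells in recurrent cells (x axis) and in residual cells (y axis), with the dashed line where both are equal. Both axes use the same 4 primary arrays. Red and blue mark the 510 higher and 787 lower members, and open circles the 55 and 123 of them whose recurrent level was closer to primary than their residual level in limma.

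Matrix genes led the higher side. Ogn, Aspn, Omd, Lum and Prelp, all small leucine-rich proteoglycans, stood among the 15 members with the largest difference kept in both stages, with Postn, Dpt, Col3a1 and Eln of the matrix beside them. Ogn read 10.45, 9.76, 8.92 and 9.66 on the recurrent arrays and 8.36, 8.99 and 10.65 on the residual arrays, against 3.02, 3.45, 2.08 and 2.36 on the primary arrays. Ogn encodes osteoglycin, and no value after withdrawal came within 4 log2 units of a primary value. Aspn read 10.31, 9.05, 9.01 and 9.46 on the recurrent arrays and 7.17, 8.13 and 10.95 on the residual arrays, against 2.54, 4.27, 2.89 and 3.29 on the primary arrays. Aspn encodes asporin, a binder of TGF-beta, and its residual values spread more than its recurrent values. Omd read 7.45, 7.08, 5.22 and 7.38 on the recurrent arrays and 6.41, 7.05 and 9.49 on the residual arrays, against 2.19, 2.54, 2.56 and 2.80 on the primary arrays. Omd encodes osteomodulin, a keratan sulfate proteoglycan of bone, and its lowest later value is the one of recurrent array 3. Lum read 9.40, 7.15, 8.30 and 7.30 on the recurrent arrays and 7.39, 6.995 and 9.04 on the residual arrays, against 3.06, 4.97, 3.64 and 2.87 on the primary arrays. Lum encodes lumican, which spaces collagen fibres in the cornea. Dcn, the prototype decorin, averaged 11.37 ± 0.69 in recurrent and 11.31 ± 0.35 in residual cells, against 8.63 ± 0.49 in primary cells (log2 signal, mean ± SD, n = 4, 3 and 4). Prelp read 10.94, 10.83, 6.68 and 8.87 on the recurrent arrays and 10.56, 10.64 and 11.32 on the residual arrays, against 5.29, 6.07, 4.91 and 4.82 on the primary arrays. Prelp anchors basement membrane to connective tissue, and it separated recurrent arrays 1 and 2, close to the residual values, from arrays 3 and 4.

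Of 14 measured small leucine-rich proteoglycan genes, 9 rose in limma, none fell and 5 did not pass, against 3.14% of all genes higher, and the same 9 met the rule. They were Aspn, Bgn, Dcn, Fmod, Lum, Ogn, Omd, Podn and Prelp, with a list median of 2.21 in recurrent and 3.38 in residual cells (log2 difference), where the median of all genes was -0.01 and 0.03. Between 8 and 10 were called on leaving out any one array. Several sit side by side. Aspn, Omd and Ogn follow one another on chromosome 13, Dcn and Lum on chromosome 10, and Prelp and Fmod on chromosome 1, so they count as separate genes but not as scattered ones. Among 23708 measured genes in their order along the chromosomes, 1296 of them members, 110 neighbouring pairs were both members. Of these pairs 30 were both higher, 61 both lower and 19 opposite. How many pairs would arise without clustering was not worked out, so nothing is read from this number. The collagen pairs Col3a1 with Col5a2 and Col6a1 with Col6a2 were both higher.

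**Figure D2:**
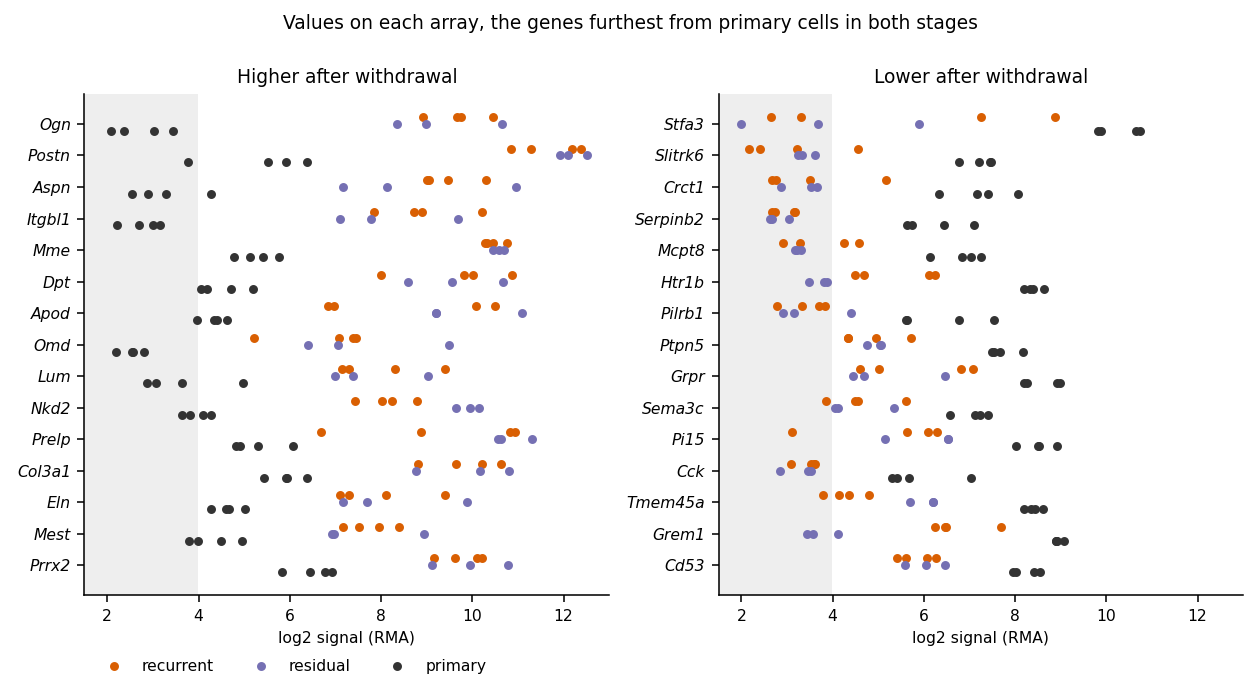
Log2 signal on every array for the 15 higher (left) and 15 lower (right) members with the largest difference kept in both stages, recurrent arrays in orange, residual in purple and primary in dark grey. The grey band marks signals under 3.96, the lowest background level of any array. Primary means of Ogn, Aspn, Itgbl1, Omd, Lum and Nkd2 lie below background, so their differences start from a level that cannot be measured and their order is uncertain.

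Other matrix proteins were higher as well. Postn read 11.29, 10.85, 12.19 and 12.38 on the recurrent arrays and 12.10, 11.93 and 12.52 on the residual arrays, against 5.91, 6.38, 5.52 and 3.76 on the primary arrays. Postn encodes periostin, a matrix protein that binds integrins, and primary array 4 was the lowest. Dpt read 9.81, 7.99, 10.86 and 10.02 on the recurrent arrays and 9.55, 8.60 and 10.67 on the residual arrays, against 5.19, 4.70, 4.18 and 4.05 on the primary arrays. Dpt, dermatopontin, binds decorin. Col3a1 read 9.64, 8.80, 10.21 and 10.62 on the recurrent arrays and 10.17, 8.77 and 10.80 on the residual arrays, against 5.93, 6.37, 5.43 and 5.92 on the primary arrays. Col3a1 encodes the fibrillar collagen III. Eln read 7.29, 7.10, 9.40 and 8.10 on the recurrent arrays and 7.17, 7.69 and 9.89 on the residual arrays, against 5.03, 4.59, 4.66 and 4.28 on the primary arrays. Eln, elastin, gives recoil to tissue, and recurrent array 3 and residual array 3 were its highest. Of 34 collagen genes 11 rose, 1 fell and 22 did not pass, and 10 were members, all higher. Over all genes 3.14% rose and 5.25% fell. In recurrent cells alone 4 collagen genes were called higher and 0 lower, and in residual cells alone 10 and 1. Col1a1 of fibrillar collagen I differed from primary by 2.95 in recurrent and 2.47 in residual cells, and Col12a1 by 1.84 in recurrent and 3.43 in residual cells (log2). Of 41 genes of elastic fibres and other matrix glycoproteins 15 rose, 1 fell and 25 did not pass, but only 9 rose without primary array 2. In the separate contrasts 9 of the 41 were called higher and 1 lower in recurrent cells, and 18 and 4 in residual cells. Fbln5, which assembles elastin, differed by 3.14 in recurrent and 4.75 in residual cells, Mfap5 of microfibrils by 2.95 in recurrent and 4.55 in residual cells, and Comp of cartilage by 3.23 in recurrent and 5.51 in residual cells. Among 40 matrix proteases and their inhibitors 9 rose and 4 fell (2 fell without primary array 1), with Mmp2, a gelatinase, at 10.09 ± 0.55 in recurrent and 11.01 ± 0.77 in residual cells, against 7.87 ± 0.11 in primary cells, and Serpinf1, a secreted serpin, at 12.23 ± 0.18 in recurrent and 12.11 ± 0.28 in residual cells, against 9.12 ± 0.28 in primary cells. The primary mean of Comp was below background, so its differences start from a level that cannot be measured. Over these 4 matrix lists together, 38 of 129 genes were higher members and 4 lower members, against 2.14% and 3.3% of all genes.

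Fibroblast markers moved with the matrix genes. Of 22 measured markers 11 rose, none fell and 11 did not pass (10 to 12 rose on leaving out any one array), and 12 met the rule, all higher. Over all genes 3.14% rose and 5.25% fell, and by the rule 2.14% were higher and 3.3% lower members. The mean of the 22 markers was 8.01 to 8.58 on the recurrent arrays and 8.16 to 9.19 on the residual arrays, against 6.71 to 7.13 on the primary arrays. In primary cells 17 of them read above background. The list shares 11 genes with the matrix lists, and of its other 11 genes 3 rose. S100a4, a calcium binder of motile cells, averaged 12.96 ± 0.09 in recurrent and 12.79 ± 0.05 in residual cells, against 12.92 ± 0.04 in primary cells, and Ly6a, a stem cell antigen, 12.26 ± 0.14 in recurrent and 12.18 ± 0.04 in residual cells, against 12.28 ± 0.07 in primary cells, and neither passed. Bulk arrays cannot tell a gene raised in the same cells from a larger part of cells of another kind, and the part of fibroblast markers in the matrix result was not tested.

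The rest of the leading higher genes had other roles. Mme read 10.46, 10.32, 10.28 and 10.77 on the recurrent arrays and 10.60, 10.46 and 10.70 on the residual arrays, against 5.12, 4.77, 5.42 and 5.77 on the primary arrays. Mme encodes neprilysin, a peptidase of the cell surface, and its values differed little within each side. Itgbl1 read 8.90, 7.84, 8.72 and 10.20 on the recurrent arrays and 7.79, 7.09 and 9.68 on the residual arrays, against 2.21, 3.00, 3.15 and 2.69 on the primary arrays. Itgbl1 encodes a secreted protein related to integrin beta chains. Apod read 10.50, 10.08, 6.96 and 6.84 on the recurrent arrays and 9.21, 9.21 and 11.09 on the residual arrays, against 4.62, 4.40, 3.97 and 4.34 on the primary arrays. Apod, the lipid carrier apolipoprotein D, was highest on recurrent arrays 1 and 2 and on residual array 3. Mest, an imprinted gene expressed from the father's copy, averaged 7.76 ± 0.53 in recurrent and 7.61 ± 1.15 in residual cells, against 4.31 ± 0.52 in primary cells, and Prrx2, a homeobox factor of mesenchyme, 9.78 ± 0.48 in recurrent and 9.94 ± 0.83 in residual cells, against 6.50 ± 0.48 in primary cells. Among 18 genes of the epithelial to mesenchymal switch Prrx2, Snai2, Zeb1 and Fn1 were members, all higher. The repressor Snai2 differed by 2.70 in recurrent and 2.11 in residual cells. Limma called 6 of the list higher and 1 lower, but only 2 or 3 higher and none lower without any one primary array. Over all genes limma called 3.14% higher and 5.25% lower, and by the rule 2.14% were higher and 3.3% lower members.

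Some Wnt pathway genes met the rule, by which 2.14% of all genes were higher and 3.3% lower. Of 40 targets and feedback genes of the pathway, Nkd2, Kremen1 and Tcf7l2 were higher and Lgr6 lower. Nkd2 read 7.42, 8.01, 8.23 and 8.79 on the recurrent arrays and 9.65, 10.14 and 9.95 on the residual arrays, against 4.09, 3.65, 3.81 and 4.27 on the primary arrays. Nkd2 binds Dishevelled and dampens Wnt signalling, and all 3 residual values exceeded all 4 recurrent values. Lgr6 read 6.44, 7.25, 5.88 and 6.32 on the recurrent arrays and 6.90, 6.59 and 6.36 on the residual arrays, against 8.27, 7.85, 8.26 and 8.24 on the primary arrays. Lgr6, a receptor for R-spondins, overlapped between recurrent and residual cells. Tcf7l2, a DNA-binding partner of beta-catenin, averaged 9.02 ± 0.13 in recurrent and 9.03 ± 0.07 in residual cells, against 8.28 ± 0.28 in primary cells, and Kremen1, a receptor of Dkk proteins, 7.73 ± 0.52 in recurrent and 8.03 ± 0.11 in residual cells, against 6.96 ± 0.17 in primary cells. Axin2, a target widely used to read the pathway and chosen here after its value was seen, averaged 7.07 ± 0.13 in recurrent and 7.29 ± 0.40 in residual cells, against 7.24 ± 0.18 in primary cells (limma adjusted p = 0.876). Limma called 6 of the 40 higher and 2 lower (3 higher without primary array 4), against 3.14% and 5.25% of all genes. In the separate contrasts 2 of the 40 were called higher and 1 lower in recurrent cells, and 11 and 3 in residual cells. The 14 secreted antagonists gave 2 higher members: Sfrp2, a decoy for Wnt ligands, at 11.39 ± 0.34 in recurrent and 11.63 ± 0.38 in residual cells, against 10.10 ± 0.17 in primary cells, and Dkk3 at 5.64 ± 0.55 in recurrent and 5.45 ± 0.66 in residual cells, against 4.59 ± 0.16 in primary cells. Wnt9a was the only member of 24 ligands, differing by 0.80 in recurrent and 2.07 in residual cells, and Fzd9 the only one of 16 receptor genes.

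The TCF/LEF motif stood in the promoters of members at about its share of all promoters. In the windows from 250 bases before to 50 bases after each start (RefSeq, build GRCm38.p6, genes of chromosome 18 left out), it was searched as CTTTGAA, as CTTTGAT, as CTTTGTA and as CTTTGTT. At least 1 of these stood on either strand in 16.2% of 376 higher and 14.8% of 629 lower members, against 16.8% of 17724 measured genes.

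Among genes of bone morphogenetic protein (BMP) signalling 5 members were higher and Grem1 was lower. Grem1 read 6.46, 6.25, 6.50 and 7.69 on the recurrent arrays and 4.13, 3.58 and 3.43 on the residual arrays, against 9.07, 8.89, 8.93 and 8.89 on the primary arrays. Grem1, gremlin, is a secreted BMP antagonist, and its recurrent values lay between the residual and the primary values without overlap. Chrdl1 read 7.42, 6.12, 5.62 and 5.78 on the recurrent arrays and 8.04, 8.10 and 8.01 on the residual arrays, against 3.17, 3.55, 3.94 and 4.10 on the primary arrays. Chrdl1 encodes another secreted BMP antagonist. Id3 read 10.94, 10.37, 10.39 and 10.49 on the recurrent arrays and 10.45, 10.22 and 10.59 on the residual arrays, against 8.37, 8.90, 8.09 and 9.05 on the primary arrays. Id3 is a target of BMP receptors, and recurrent and residual values overlapped. Fstl1, a follistatin-like secreted protein, differed by 2.57 in recurrent and 3.81 in residual cells, and the ligands Bmp4 and Gdf5 by 0.56 in recurrent and 0.60 in residual cells and by 0.86 in recurrent and 1.21 in residual cells, the last without a limma call. Bmp4 was below background in residual and primary cells and Gdf5 in primary cells, so these differences are not measured sizes. Of 37 BMP pathway genes 7 rose and 1 fell (4 rose without primary array 2), where 3.14% of all genes rose and 5.25% fell. In the separate contrasts 3 of the 37 were called higher and 3 lower in recurrent cells, and 9 and 1 in residual cells. In the TGF-beta pathway 5 of 24 genes rose and none fell (3 rose without primary array 2). Separately, 3 of the 24 were called higher and 0 lower in recurrent cells, and 9 and 1 in residual cells. The members were Tgfb3, at 9.32 ± 0.07 in recurrent and 10.04 ± 0.46 in residual cells, against 8.04 ± 0.13 in primary cells, the binders of latent TGF-beta Ltbp2, at 9.76 ± 0.46 in recurrent and 10.65 ± 0.27 in residual cells, against 8.32 ± 0.27 in primary cells, and Ltbp4, and Lrrc32, which holds latent TGF-beta at the cell surface, at 6.24 ± 0.61 in recurrent and 7.29 ± 0.81 in residual cells, against 3.89 ± 0.44 in primary cells.

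The family of epidermal growth factor (EGF) split, with the receptor Egfr higher and its partner Erbb2 and 3 ligands lower. Egfr read 7.65, 7.47, 8.13 and 8.44 on the recurrent arrays and 8.14, 8.44 and 8.39 on the residual arrays, against 6.37, 5.56, 6.44 and 6.03 on the primary arrays. Erbb2 read 6.84, 7.48, 6.93 and 7.14 on the recurrent arrays and 7.69, 8.01 and 7.43 on the residual arrays, against 9.74, 9.44, 9.85 and 9.73 on the primary arrays. Erbb2 binds no ligand and pairs with the other receptors of the family, and for both genes the sides lay more than 1 log2 unit apart. Epgn read 6.13, 5.42, 5.59 and 5.13 on the recurrent arrays and 5.29, 5.12 and 5.19 on the residual arrays, against 7.83, 7.59, 7.65 and 7.88 on the primary arrays. Epgn encodes epigen, a weak ligand of Egfr. Tgfa read 4.71, 4.52, 4.39 and 3.95 on the recurrent arrays and 4.58, 4.18 and 4.38 on the residual arrays, against 5.80, 5.54, 5.996 and 5.96 on the primary arrays. Tgfa encodes transforming growth factor alpha, and its recurrent and residual values overlapped. Areg read 9.80, 10.06, 9.21 and 8.98 on the recurrent arrays and 8.20, 7.32 and 7.86 on the residual arrays, against 10.85, 10.51, 11.07 and 10.95 on the primary arrays. Areg, amphiregulin, a ligand needed for growth of the mammary ducts, was closer to primary in recurrent cells. Of 15 family genes 5 fell and 1 rose, and the same numbers were found on leaving out any one array. The background was 5.25% of genes lower and 3.14% higher.

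**Figure D3:**
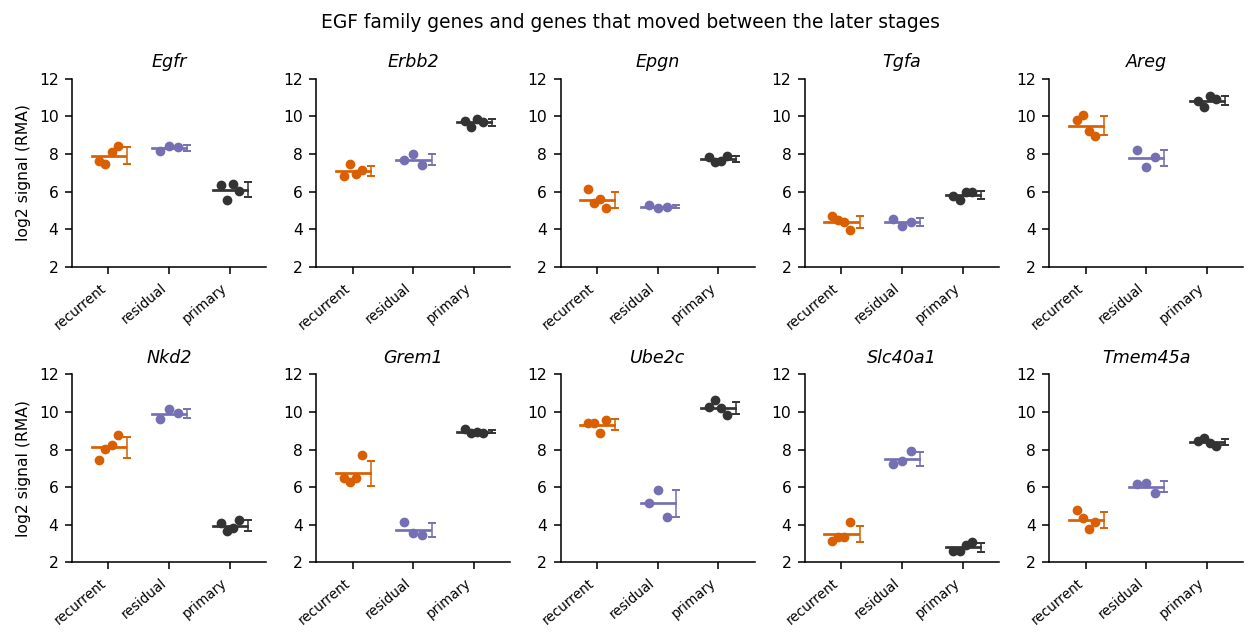
Log2 signal on each array (points), with group means (bars) and 1 SD (whiskers), for 5 EGF family genes (top row) and 5 genes whose level differed between the later stages (bottom row). Erbb2 lies between 6.84 and 8.01 on the 7 arrays after withdrawal, below all primary values of 9.44 and more, and Grem1 and Ube2c are lowest in residual cells.

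On the list of PDGF, MET, IGF and other receptor kinases all 6 members were higher. Pdgfrb read 9.92, 9.87, 9.79 and 10.26 on the recurrent arrays and 10.35, 10.39 and 10.73 on the residual arrays, against 7.57, 7.71, 7.75 and 7.66 on the primary arrays. Pdgfrb is a receptor of platelet-derived growth factor (PDGF), and the values of each group stayed within 1 log2 unit. Igf1 read 8.11, 8.60, 8.22 and 9.89 on the recurrent arrays and 10.24, 10.26 and 10.65 on the residual arrays, against 6.65, 6.25, 6.84 and 6.54 on the primary arrays. Igf1, insulin-like growth factor 1, was higher in residual than in recurrent cells (limma adjusted p = 0.0183). Pdgfra averaged 9.54 ± 0.52 in recurrent and 9.64 ± 0.47 in residual cells, against 8.55 ± 0.15 in primary cells. Limma called 7 of 32 genes of this list higher and none lower, against 3.14% and 5.25% of all genes. In recurrent cells alone 3 of the 32 were called higher and 0 lower, and in residual cells alone 8 and 2. Of 21 MAPK feedback genes 7 fell and 3 rose, with Spry1, an inhibitor of receptor signalling, at 8.49 ± 0.44 in recurrent and 8.92 ± 0.11 in residual cells, against 6.25 ± 0.26 in primary cells, and Etv4, an ETS factor, at 6.28 ± 0.11 in recurrent and 4.75 ± 0.18 in residual cells, against 6.79 ± 0.17 in primary cells. The 7 falls became 3 or 4 without any one primary array, recurrent array 4, residual array 1 or residual array 3. In the separate contrasts 11 genes of this list were called lower in residual cells and only 1 in recurrent cells.

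The leading lower genes were known from varied tissues. Stfa3 read 8.88, 7.25, 3.32 and 2.65 on the recurrent arrays and 2.00, 5.90 and 3.68 on the residual arrays, against 9.83, 10.64, 9.87 and 10.73 on the primary arrays. Stfa3 encodes a stefin of neutrophils with near-identical copies, so which copy gave the signal is uncertain, and recurrent arrays 1 and 2 were nearest to primary. Slitrk6 read 2.17, 2.41, 3.23 and 4.56 on the recurrent arrays and 3.62, 3.24 and 3.34 on the residual arrays, against 7.21, 6.78, 7.47 and 7.46 on the primary arrays. Slitrk6 is a neuronal membrane protein. Serpinb2 read 2.68, 3.17, 3.18 and 2.75 on the recurrent arrays and 2.62, 3.05 and 2.68 on the residual arrays, against 5.64, 6.43, 7.09 and 5.74 on the primary arrays. Serpinb2 inhibits plasminogen activators, and all its later values were in the background range. Mcpt8 read 4.25, 4.58, 2.92 and 3.29 on the recurrent arrays and 3.17, 3.31 and 3.23 on the residual arrays, against 6.14, 7.25, 6.83 and 7.03 on the primary arrays. Mcpt8 is a protease of basophils. Htr1b read 4.69, 4.49, 6.10 and 6.25 on the recurrent arrays and 3.48, 3.87 and 3.80 on the residual arrays, against 8.40, 8.64, 8.20 and 8.33 on the primary arrays. Htr1b, a serotonin receptor, was lower in residual than in recurrent cells. Grpr, the receptor of gastrin-releasing peptide, averaged 5.88 ± 1.25 in recurrent and 5.20 ± 1.11 in residual cells, against 8.59 ± 0.42 in primary cells, Cck, the peptide cholecystokinin, 3.45 ± 0.25 in recurrent and 3.28 ± 0.37 in residual cells, against 5.85 ± 0.80 in primary cells, and Ptpn5, a phosphatase of striatal neurons, 4.83 ± 0.66 in recurrent and 4.95 ± 0.17 in residual cells, against 7.72 ± 0.31 in primary cells. The later means of Slitrk6, Crct1, Serpinb2, Mcpt8, Pilrb1 and Cck were below background, so their differences end at a level that cannot be measured.

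Further lower members were Sema3c, a secreted guidance protein, at 4.62 ± 0.72 in recurrent and 4.50 ± 0.73 in residual cells, against 7.08 ± 0.36 in primary cells, Pi15, a secreted inhibitor of proteases, at 5.29 ± 1.47 in recurrent and 6.07 ± 0.80 in residual cells, against 8.50 ± 0.37 in primary cells, and Crct1, of the cornified layer, at 3.53 ± 1.16 in recurrent and 3.35 ± 0.42 in residual cells, against 7.24 ± 0.71 in primary cells. Cd53 read 6.08, 5.62, 5.42 and 6.28 on the recurrent arrays and 5.58, 6.47 and 6.05 on the residual arrays, against 7.95, 8.54, 8.03 and 8.40 on the primary arrays. Cd53 is a tetraspanin of leukocytes, and no later value came within 1 log2 unit of a primary value. Pilrb1, an activating receptor of myeloid cells, averaged 3.41 ± 0.47 in recurrent and 3.49 ± 0.80 in residual cells, against 6.38 ± 0.94 in primary cells. The neighbouring genes Il18r1 and Il18rap, subunits of the interleukin 18 receptor on chromosome 1, differed by -1.64 in recurrent and -3.23 in residual cells and by -1.64 in recurrent and -4.47 in residual cells. The residual mean of Il18rap was below background, so its residual difference is no measured size.

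Because Mcpt8, Cd53, Pilrb1 and Stfa3 are known from blood cells, the marker lists of such cells are given beside them. Macrophage and monocyte markers averaged 5.16 to 6.28 on the recurrent and 4.91 to 5.82 on the residual arrays, against 5.63 to 6.38 on the primary arrays. Of 28 measured, 3 fell, 1 rose and 24 did not pass, where 5.25% of all genes fell and 3.14% rose. Only 1 of the 28 fell without primary array 1, primary array 2 or residual array 3, and 7 fell without recurrent array 4. Cd14, a co-receptor for lipopolysaccharide, was the only member, at 8.17 ± 0.35 in recurrent and 7.72 ± 0.24 in residual cells, against 9.18 ± 0.23 in primary cells. Tyrobp, an adaptor of myeloid receptors, averaged 8.01 ± 0.73 in recurrent and 6.74 ± 0.61 in residual cells, against 8.41 ± 0.56 in primary cells and did not pass, and Cx3cr1, the fractalkine receptor, was the one called higher, a call lost without primary array 1, 3 or 4, recurrent array 2, 3 or 4, or residual array 1 or 2, and with recurrent and residual arrays as 1 group. In residual cells alone 7 of the 28 were called lower, and in recurrent cells alone 1. These separate contrasts called 12.4% and 1.8% of all genes in either direction. Read above background were 24 of the 28 in recurrent, 19 in residual and 25 in primary cells. Adgre1 and Ptprc, both chosen after their values were seen, averaged 4.32 and 4.31 in primary cells, a little above background. Neutrophil and mast cell markers averaged 3.01 to 4.16 on the recurrent and 3.38 to 3.59 on the residual arrays, against 4.05 to 4.19 on the primary arrays, and 4 of 18 had primary means above background. S100a8 read 11.81, 10.51, 6.04 and 4.34 on the recurrent arrays and 8.49, 7.37 and 7.09 on the residual arrays, against 11.81, 12.03, 11.73 and 11.51 on the primary arrays. S100a8, a calcium binder of neutrophils, was no member and split the recurrent arrays as Stfa3 did. Neither lymphocyte nor endothelial markers had a member or a call. The part of these cells in the lower genes was not tested.

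**Figure D4:**
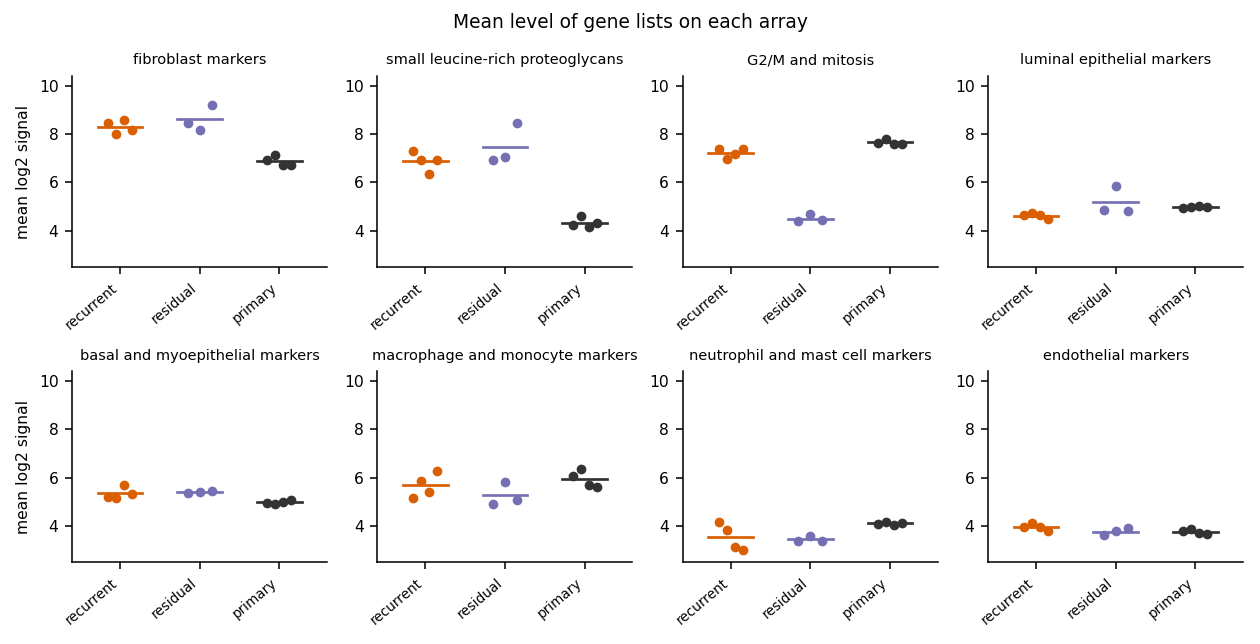
Mean log2 signal of 8 gene lists on each array (points) with group means (bars), recurrent, residual and primary from left to right. Fibroblast markers and small leucine-rich proteoglycans lie above primary on all 7 arrays after withdrawal, and mitosis genes are lowest on the 3 residual arrays.

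The contrast of recurrent against residual cells was not used by the rule and asks whether a kept difference shrank or grew at regrowth. It called 5.78% of all genes, 3.58% higher and 2.19% lower in recurrent cells. Of the 510 higher members 55 were lower in recurrent cells and so closer to primary, which is 10.8%, 3 were further away and 452 were not called. Of the 787 lower members 123 were closer to primary, which is 15.6%, 5 further away and 659 not called. A gene with no call is not shown to be equal in both stages. The choice of members and this contrast read the same residual and recurrent arrays, so these shares are a description. Without recurrent array 3 there were 36 higher members that moved closer, and without residual array 2 there were 35. Those that moved closer kept a median of 42.0% of the residual difference if higher and 34.9% if lower (log2 scale). The rule and the call both bound these percentages, and some means that enter them lie below background, so they are no measured sizes.

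The 6 lower members that moved furthest back toward primary all act in cell division. Ube2c read 9.43, 9.42, 8.89 and 9.55 on the recurrent arrays and 5.17, 5.83 and 4.40 on the residual arrays, against 10.26, 10.61, 10.21 and 9.84 on the primary arrays. Ube2c, the conjugating enzyme of the anaphase-promoting complex, was 4.19 log2 units higher in recurrent than in residual cells (limma adjusted p = 1.11e-05), yet all recurrent values stayed below the lowest primary value. Ccnb2 read 8.56, 7.77, 8.16 and 8.89 on the recurrent arrays and 4.23, 4.96 and 4.52 on the residual arrays, against 9.11, 9.17, 8.97 and 8.96 on the primary arrays. Ccnb2 encodes cyclin B2, with a recurrent minus residual difference of 3.78 (limma adjusted p = 5.42e-06). Hmmr read 7.15, 6.001, 6.96 and 7.21 on the recurrent arrays and 3.69, 3.80 and 3.96 on the residual arrays, against 7.24, 7.42, 7.29 and 7.29 on the primary arrays. Hmmr is a spindle protein, and its highest recurrent value fell just short of its lowest primary value. Cdca3, Knl1 and Cep55, of the mitotic entry, the kinetochore and the final cut between daughter cells, differed from primary by -0.50, -0.62 and -0.59 in recurrent cells, and by -3.86, -3.68 and -3.62 in residual cells. The residual means of Hmmr, Knl1 and Cep55 were below background, as were those of all but 21 of the 41 mitosis genes, so the residual differences end at a level that cannot be measured. Of 41 mitosis genes 40 fell in the contrast after withdrawal, 41 in residual and 2 in recurrent cells, 40 were higher in recurrent than in residual cells, and 14 met the rule. Over all genes 5.25% fell in the contrast after withdrawal, and 3.3% were lower members. The list median was -0.42 in recurrent and -3.12 in residual cells. The 40 became 0 when recurrent and residual arrays were fitted as 1 group, a fit in which the difference between these stages counts as spread. Of 41 S phase genes 27 fell (16 without primary array 1 or 3, and 0 with 1 group), and Chaf1b and Rfc2 met the rule. In the separate contrasts 33 S phase genes were called lower in residual and 0 in recurrent cells.

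Of these 6 genes all hold in their promoters the cell cycle homology region (CHR), TTTGAA, which the DREAM complex binds to silence mitosis genes in resting cells, and 4 of them also hold the CCAAT box, bound by NF-Y. These 4 promoters are shown because they carry both motifs, while those of Knl1 and Cep55 had 1 CHR match each and 0 CCAAT boxes (Cep55 in both of its 2 windows). Both motifs are in capitals, on either strand (TTCAAA and ATTGG on the reverse one), in RefSeq windows of GRCm38.p6, 5′ to 3′ along the gene. Ube2c lies at chr2:164769679-164769978 (plus strand), Ccnb2 at chr9:70421505-70421804 (minus strand), Cdca3 at chr6:124829926-124830225 (plus strand) and Hmmr at chr11:40733388-40733687 (minus strand).
Ube2c: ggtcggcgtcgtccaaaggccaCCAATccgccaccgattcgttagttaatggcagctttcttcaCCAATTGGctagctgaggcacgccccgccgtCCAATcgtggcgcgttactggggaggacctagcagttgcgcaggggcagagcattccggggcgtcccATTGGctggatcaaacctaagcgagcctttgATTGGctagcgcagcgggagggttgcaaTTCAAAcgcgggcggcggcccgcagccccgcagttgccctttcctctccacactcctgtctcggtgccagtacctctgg
Ccnb2: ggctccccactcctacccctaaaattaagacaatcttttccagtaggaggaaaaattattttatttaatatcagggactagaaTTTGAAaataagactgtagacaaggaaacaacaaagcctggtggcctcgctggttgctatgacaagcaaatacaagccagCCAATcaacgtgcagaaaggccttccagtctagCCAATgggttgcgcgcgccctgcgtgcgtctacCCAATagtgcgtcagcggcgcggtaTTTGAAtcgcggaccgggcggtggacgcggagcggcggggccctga
Cdca3: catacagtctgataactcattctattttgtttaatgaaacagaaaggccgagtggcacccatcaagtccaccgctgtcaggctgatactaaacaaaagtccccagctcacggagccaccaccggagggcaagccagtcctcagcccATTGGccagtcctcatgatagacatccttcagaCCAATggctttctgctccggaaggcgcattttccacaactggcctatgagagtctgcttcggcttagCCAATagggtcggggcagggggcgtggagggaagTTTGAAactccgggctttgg
Hmmr: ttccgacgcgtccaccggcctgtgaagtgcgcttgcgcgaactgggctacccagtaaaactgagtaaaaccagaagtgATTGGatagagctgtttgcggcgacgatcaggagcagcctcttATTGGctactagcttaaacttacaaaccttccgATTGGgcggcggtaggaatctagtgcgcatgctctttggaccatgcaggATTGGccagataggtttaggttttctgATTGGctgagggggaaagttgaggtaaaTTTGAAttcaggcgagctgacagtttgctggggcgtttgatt
Each holds the CHR letters. Ube2c has 1 match and 6 CCAAT boxes, Ccnb2 has 2 and 3, Cdca3 1 and 3, and Hmmr 1 and 5. The CHR letters stood in 70.6% of 34 mitosis promoters, in 16.0% of higher and 16.2% of lower members, and in 17.8% of all 17724. CCAAT stood in 76.5% of mitosis promoters and in 41.9% of all. CTTTGAA of the TCF/LEF set contains the CHR letters, so the searches overlap, and a match is no proof of binding.

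Other members that moved closer to primary were transporters, matrix genes and receptors. Slc40a1 read 3.14, 3.35, 3.37 and 4.16 on the recurrent arrays and 7.21, 7.41 and 7.92 on the residual arrays, against 2.58, 2.59, 2.92 and 3.08 on the primary arrays. Slc40a1 encodes ferroportin, the exporter of iron, and its mean in recurrent cells was below background, as in primary cells (recurrent minus residual -4.01, limma adjusted p = 5.1e-06). Fmod read 7.26, 7.35, 5.05 and 5.27 on the recurrent arrays and 8.97, 11.04 and 10.61 on the residual arrays, against 4.09, 3.73, 3.42 and 4.27 on the primary arrays. Fmod encodes fibromodulin and was the only one of the 9 higher small leucine-rich proteoglycans called between the stages (limma adjusted p = 0.00347). Comp, S100b, a calcium binder, Uts2r, the urotensin receptor, and Cyp26a1, which breaks down retinoic acid, were lower in recurrent than in residual cells by -2.28, -2.25, -2.35 and -1.91 (log2 difference). Their limma adjusted p values were 0.0371, 0.0163, 0.00093 and 0.0217.

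Few members moved further from primary. Vcam1 read 9.82, 9.23, 9.10 and 9.38 on the recurrent arrays and 7.97, 8.41 and 8.64 on the residual arrays, against 7.42, 7.26, 7.04 and 7.70 on the primary arrays. Vcam1, an adhesion molecule that binds integrins of leukocytes, was higher in recurrent than in residual cells by 1.04 (limma adjusted p = 0.0173). Mtss2 and Pdlim4, both linked to actin, did so by 0.96 and 0.65. Tmem45a read 4.80, 4.35, 3.78 and 4.14 on the recurrent arrays and 6.19, 6.20 and 5.69 on the residual arrays, against 8.44, 8.61, 8.35 and 8.20 on the primary arrays. Tmem45a is a membrane protein of keratinocytes, and its 3 groups did not overlap (limma adjusted p = 0.000807). Nt5e, the surface enzyme that makes adenosine, and Nmnat2, which makes NAD in axons, were lower in recurrent than in residual cells by -0.97 and -0.81. These few calls rested on single arrays. The 3 higher ones became 0 without residual array 1, 1 without primary array 1 or 4, recurrent array 1 or residual array 2, and 5 without recurrent array 2. The 5 lower ones became 1 without residual array 1 or 2 and 3 without recurrent array 3.

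Genes of ribosome making and metabolism fell more often than they rose, where 5.25% of all genes fell and 3.14% rose. Of 25 ribosome biogenesis genes 22 fell and none rose, with 22 called lower in residual and 0 in recurrent cells, and 6 met the rule. Nop56, a nucleolar protein that guides RNA methylation, differed by -0.57 in recurrent and -1.50 in residual cells (log2). The 22 became 12 to 14 without any one primary array, 14 after a further quantile normalization and 1 with recurrent and residual arrays as 1 group. Ribosomal protein genes, many with pseudogene copies, gave 9 of 36 lower, and 17 without recurrent array 3 but 4 or 5 without primary array 1, 2 or 3. In residual cells alone 24 of them were called lower, and in recurrent cells alone 2. Of 20 glycolysis genes 8 fell, none of them called in recurrent cells alone, and Pkm, pyruvate kinase, and Hk1, a hexokinase, met the rule. Cholesterol and lipid synthesis gave 7 of 30 lower (4 without primary array 1 or 2), with Fdps, the farnesyl pyrophosphate synthase, at 4.96 ± 0.63 in recurrent and 4.72 ± 0.11 in residual cells, against 6.02 ± 0.31 in primary cells. In the separate contrasts 13 of these 30 genes were called lower in residual and 0 in recurrent cells.

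**Figure D5:**
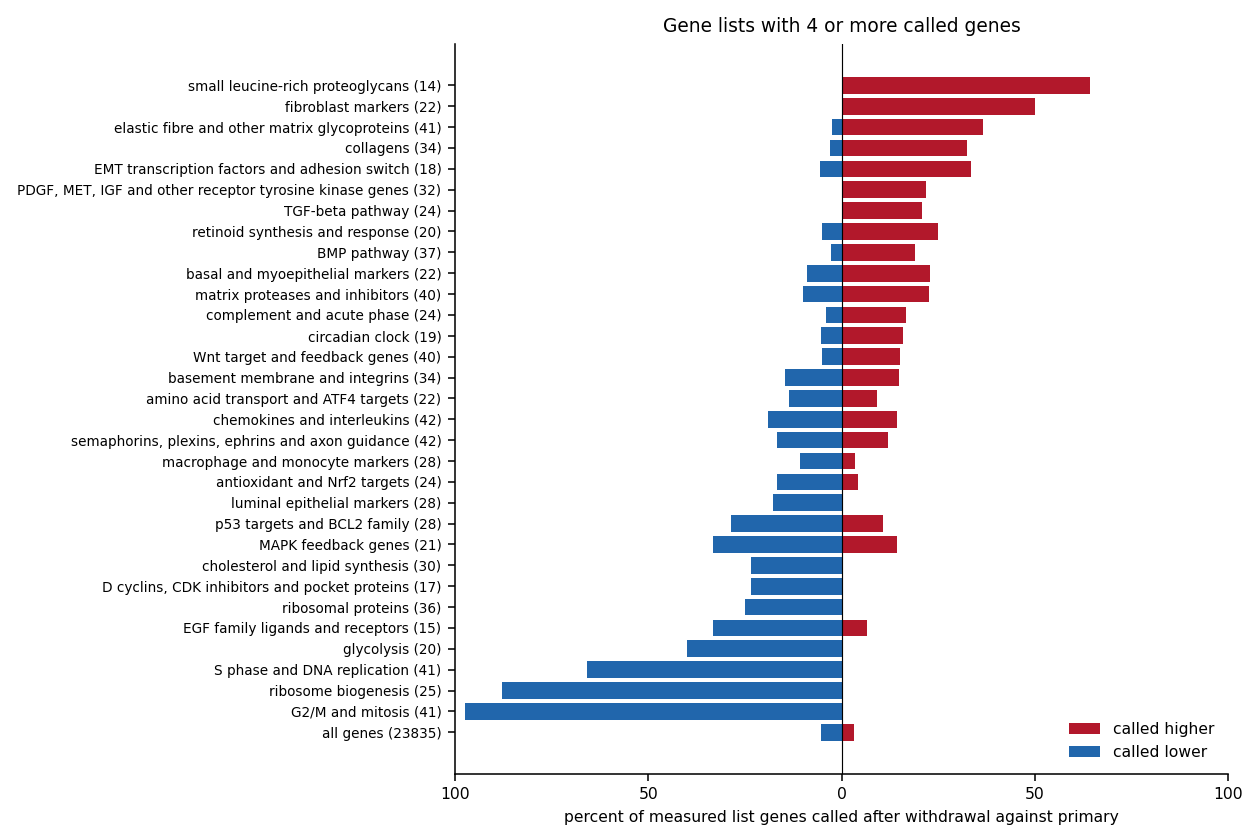
Percent of the measured genes of each list (number in brackets) that limma called higher (red, to the right) or lower (blue, to the left) after withdrawal against primary, for lists with 4 or more called genes, with all genes at the bottom. Small leucine-rich proteoglycans reach furthest to the right with 9 of 14 genes, and mitosis genes to the left with 40 of 41. In the separate contrasts 41 mitosis genes were called lower in residual and only 2 in recurrent cells.

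Retinoid and cytokine genes and the markers of mammary lineages are set beside all genes, of which 3.14% rose and 5.25% fell. By the rule 2.14% of all genes were higher and 3.3% lower members. Of 20 retinoid genes 5 rose and 1 fell, and Cyp26a1, Stra6, Rarres2 and Rdh10 were members, all higher. In recurrent cells alone 1 retinoid gene was called higher and 1 lower, and in residual cells alone 6 and 2. Rdh10, which makes retinal, averaged 7.13 ± 0.05 in recurrent and 7.95 ± 0.44 in residual cells, against 6.35 ± 0.43 in primary cells, and Stra6, the receptor that takes up retinol, 6.15 ± 1.06 in recurrent and 8.19 ± 1.30 in residual cells, against 4.40 ± 0.40 in primary cells. Of 42 chemokine and interleukin genes 6 rose and 8 fell (2 or 3 fell without primary array 1, 3 or 4, and 3 rose without primary array 3 or 4). In the separate contrasts 13 of them were called lower in residual and 1 in recurrent cells, and 5 higher in each. The chemokines Cxcl12 and Cx3cl1 were higher, differing by 1.79 in recurrent and 2.91 in residual cells and by 1.74 in recurrent and 2.59 in residual cells. Of 28 luminal markers none rose and 5 fell, and Cldn3, a tight junction protein, was lower at 6.05 ± 0.61 in recurrent and 6.62 ± 0.62 in residual cells, against 8.24 ± 0.16 in primary cells. Areg was the other lower member, and Grhl2, without a limma call, was the 1 higher member. In residual cells alone 3 luminal markers were called higher and 4 lower, and in recurrent cells 0 and 4. The list median was -0.07 in recurrent and 0.62 in residual cells, the residual one unlike the calls in sign, and its mean was 5.84 on residual array 2 against 4.80 on the lowest residual array. Of 22 basal markers 5 rose and 2 fell (2 or 3 rose and 1 fell without any one primary array). Acta2 read 6.70, 6.62, 11.002 and 9.96 on the recurrent arrays and 8.18, 8.52 and 7.72 on the residual arrays, against 5.76, 5.76, 5.72 and 5.52 on the primary arrays. Acta2, smooth muscle actin, was highest on recurrent arrays 3 and 4. Acta2 and Pdgfrb were also the 2 members, both higher, among 12 pericyte and smooth muscle markers. That list averaged 4.55 to 5.28 on the recurrent and 4.71 to 4.83 on the residual arrays, against 4.14 to 4.23 on the primary arrays. Which cells gave the Acta2 signal was not tested. Neither the 28 interferon-stimulated genes nor the 16 genes of antigen processing held a member or a call after withdrawal. Between the stages 5 of the 28 and 1 of the 16 were called higher in recurrent than in residual cells, against 3.58% of all genes. The interferon list averaged 5.805 to 6.95 on the recurrent and 5.395 to 5.56 on the residual arrays, against 5.69 to 5.88 on the primary arrays.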

How the data were processed

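The authors deposited 1 table of log2 signals for 11 Affymetrix arrays, 1 row per Entrez Gene identifier, which RMA produced in R 3.0.2 (both per the submitters' processing notes). For the redefined probe annotation the release was not given in the sources used here. No further normalization was applied to the deposited log2 values. Of 24479 rows 23281 were named by the platform table and 556 more through RefSeq (assembly GRCm38.p6), 642 had no name (13 met the rule), and 2 second rows of a symbol were dropped.

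Groups came from sample titles. Limma 3.58.1 in R 4.3.3 fitted 3 groups to all arrays, with Benjamini-Hochberg adjustment over 23835 genes and two-sided tests. Genes with equal values on both sides do not meet the rule. The 49 gene lists hold 1221 entries, of which 1204 were measured, and list counts use the limma call after withdrawal unless said otherwise. Each such count is to be read beside 3.14% of all genes called higher and 5.25% called lower. The genes described and the lists were chosen with earlier results of these data known. The text names, by rule, the 15 genes each way with the largest of the smaller of both stage differences and a higher side above background, up to 6 members per list, the strongest moves between stages and the genes at the edge of the rule. A further gene is said to be chosen after its values were seen, and those under the other observations were taken from the same lists. On simulated data with 200 changed genes, 72% of 2-fold and 98% of 4-fold changes after withdrawal were recovered with 7 false calls. Its values were independent and normal, with the same change in both later stages. In the data 1999 genes were called and 1377 differed between those stages, so these rates need not hold there. No read depth applies to arrays, and the number of arrays limits the precision. One gene is not reported here. Figures used matplotlib.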

Additional observations from a re-analysis of the deposited data

Results flagged for a closer look

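Of 272 sets of 4 values (the genes named in the text, in recurrent and in primary cells), 17 had a highest or lowest value whose distance to its neighbour took up more than 0.829 of the range. Chance gives about 1 in 20 such sets, so this number is near what chance gives, and the residual group with 3 arrays was not tested. On recurrent array 1 these were Upk3b at 4.12 (next value 4.20), Timp1 at 11.02 (11.77), Cck at 3.08 (3.53) and Uts2r at 6.17 (5.30), and on recurrent array 2 Epcam at 3.32 (3.43). On recurrent array 3 they were Omd at 5.22 (7.08), Mfap5 at 10.15 (7.24), Knl1 at 6.34 (7.03) and Pdlim4 at 8.86 (9.24). On recurrent array 4 they were Kremen1 at 8.50 (7.56), Gdf5 at 5.83 (4.51), Etv4 at 6.11 (6.33) and Cdon at 9.68 (9.22). Primary array 2 was lowest for Lgr6 at 7.85 (8.24) and highest for Cx3cr1 at 7.15 (6.71) and Nop56 at 8.92 (8.69), and primary array 3 highest for Cyp26a1 at 4.19 (3.49).

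The difference from primary cells was itself different between the stages for 38 named genes (limma, recurrent minus residual, log2, adjusted p under 0.05). Among higher members the differences were -3.97 for Fmod, -1.80 for Nkd2, -1.61 for Fbln5, -2.28 for Comp, -1.27 for Wnt9a, -1.81 for Chrdl1, -0.72 for Tgfb3 and -1.68 for Igf1. They were -4.01 for Slc40a1, -2.25 for S100b, -2.35 for Uts2r, -1.91 for Cyp26a1, -1.63 for Itga11 and -1.31 for Itgb5, and positive for Vcam1 at 1.04, Mtss2 at 0.96 and Pdlim4 at 0.65. Among lower members of cell division they were 4.19 for Ube2c, 3.78 for Ccnb2, 3.02 for Hmmr, 3.36 for Cdca3, 3.06 for Knl1, 3.03 for Cep55, 1.29 for Chaf1b and 0.59 for Rfc2. Other lower members gave 3.01 for Grem1, 1.72 for Areg, 1.52 for Etv4, 1.67 for Htr1b, 2.83 for Il18rap, 0.92 for Nop56, 0.76 for Pkm and 0.72 for Mdm2. Lower members further from primary in recurrent cells gave -1.76 for Tmem45a, -0.97 for Nt5e and -0.81 for Nmnat2. Krt8 and Krt18, no members, gave 1.37 and 1.75.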

How the results depend on the processing

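No named gene reversed under 17 other fits, and of 118 called ones 40 lost the call in at least 1, 35 of them with recurrent and residual arrays as 1 group. That fit gave 256 higher and 320 lower genes in place of 748 and 1251, and moved 23 of 28 list counts by over 1.5 times, for example to 7 of 34 collagens, 3 of 37 BMP pathway genes and 1 of 20 glycolysis genes. An adjusted p under 0.01 gave 293 and 503, at least 2-fold 310 and 395, and leaving out each array 460 to 753 and 754 to 1286. The rule took 96 higher and 73 lower genes with at least 0.5 log2 units between the sides, 364 and 1223 with arrays centred, and 556 to 752 and 848 to 1105 on leaving out each array, where fewer values have to be cleared. Members closer to primary in recurrent cells were 35 to 47 higher and 85 to 117 lower on leaving out each array, and those further away 0 to 5 and 1 to 7. Quantile-normalized again, 1 higher and 8 lower members were further away. Same-numbered arrays of different groups did not deviate together over all genes (r from -0.08 to 0.02 over 10 pairs). This correlation cannot exclude a shared origin, so whether the numbers pair the samples is not settled. With the replicate block limma called 559 higher and 844 lower genes, 32 higher and 73 lower members moved closer and 0 and 3 further away. The causes of these shifts were not tested. Low signals near background limit the order of the largest differences.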

Other observations

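Integrins, the receptors through which cells hold on to the matrix, were members on both sides. Itga11 read 5.39, 5.94, 5.89 and 6.88 on the recurrent arrays and 7.18, 7.44 and 8.35 on the residual arrays, against 4.10, 3.52, 4.26 and 4.46 on the primary arrays. Itga11 pairs with Itgb1 to bind fibrillar collagen. Itgb5, a chain that binds vitronectin, averaged 9.84 ± 0.43 in recurrent and 11.14 ± 0.13 in residual cells, against 9.17 ± 0.16 in primary cells (log2 signal, mean ± SD, n = 4, 3 and 4). Itgb3 was lower at 6.71 ± 0.19 in recurrent and 6.44 ± 0.54 in residual cells, against 7.43 ± 0.10 in primary cells, and so was Itgb7, a chain of leukocytes, at 4.77 ± 0.21 in recurrent and 4.32 ± 0.04 in residual cells, against 5.69 ± 0.43 in primary cells. The residual mean of Itgb7 was below background. Of 34 basement membrane and integrin genes limma called 5 higher and 5 lower after withdrawal (3 lower without primary array 3 or 4 or residual array 3), against 3.14% and 5.25% of all genes.

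Genes of cell survival were members on both sides as well. Bcl2l11, which encodes Bim, averaged 7.85 ± 0.49 in recurrent and 8.59 ± 0.13 in residual cells, against 7.05 ± 0.14 in primary cells, and Bmf 5.82 ± 0.71 in recurrent and 6.93 ± 0.21 in residual cells, against 5.18 ± 0.07 in primary cells, both promoters of cell death and both higher. Bcl2l1, whose main product protects cells, was lower at 8.10 ± 0.67 in recurrent and 7.66 ± 0.12 in residual cells, against 9.08 ± 0.13 in primary cells, and Mdm2, which marks p53 for breakdown, at 8.44 ± 0.20 in recurrent and 7.72 ± 0.20 in residual cells, against 8.86 ± 0.14 in primary cells. Of 28 p53 targets and BCL2 family genes 3 rose and 8 fell, but only 4 or 5 fell without primary array 2 or 4. Over all genes 3.14% rose and 5.25% fell. In the separate contrasts 9 of the 28 were called lower in residual and 0 in recurrent cells. Among 14 hedgehog genes the co-receptors Cdon and Boc were the members. Cdon read 9.18, 9.22, 9.18 and 9.68 on the recurrent arrays and 10.16, 9.95 and 9.73 on the residual arrays, against 7.16, 6.80, 7.76 and 7.49 on the primary arrays. Boc averaged 5.60 ± 0.38 in recurrent and 6.31 ± 0.29 in residual cells, against 4.77 ± 0.24 in primary cells. Of 23 Notch genes 3 rose and none fell (1 rose without primary array 1 or 2), and 3 were higher members and 1 a lower member, with Maml2, a co-activator, at 7.58 ± 0.23 in recurrent and 7.87 ± 0.09 in residual cells, against 6.40 ± 0.35 in primary cells and Hes1, a target, at 9.92 ± 0.51 in recurrent and 10.30 ± 0.50 in residual cells, against 9.29 ± 0.10 in primary cells. Of 642 rows without a name here, 13 met the rule and were not followed.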
